A study of Mus musculus with 2 samples.

Results

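Primordial germ cells, the embryonic founders of eggs and sperm, were picked out of 2 single-cell RNA-seq libraries of C57BL/6 mouse embryos, 1 at E11.5 and 1 at E10.5, where E stands for the embryonic day. A cell was taken as a germ cell when it held at least 3 UMIs of Dppa3, Pou5f1, Dnd1 and Dppa5a together, with at least 2 of the 4 genes detected. A UMI is a molecular tag that marks 1 captured RNA molecule. By this rule 65 of 18461 cells were germ cells, 51 of 9756 at E11.5 and 14 of 8705 at E10.5. Both libraries were made from the dorsal aorta with its surrounding tissue, pooled with fetal liver, and the tissue was dissociated with collagenase and dispase and then trypsin. The labels name no treatment or mutation at either stage, and the number of embryos is not given in the sources used here. The series was set up to study the precursors of blood stem cells, and germ cells were not its subject. With 1 library per stage there was no replicate, and no test between stages was possible. Intervals are exact 95% intervals that cover counting error only, since cells of 1 library are not replicates.

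Primordial germ cells keep a pluripotency programme after it is lost from the body, move through the hindgut and its mesentery, and settle in the genital ridges next to the aorta. As they arrive there they lose DNA methylation across the genome, and a set of genes held silent by promoter methylation, among them Dazl and Ddx4, is switched on. Of the 4 selection genes, Pou5f1 encodes the pluripotency factor OCT4, Dppa3 a protein that protects against DNA methylation changes in egg and embryo, and Dnd1 an RNA-binding protein needed for germ cell survival. Dppa5a encodes an RNA-binding protein of pluripotent cells. In GRCm38 coordinates, Dppa3 (ENSMUSG00000046323) spans chromosome 6 from 122626410 to 122630272 on the plus strand and Pou5f1 (ENSMUSG00000024406) chromosome 17 from 35506018 to 35510772 on the plus strand. Dppa5a (ENSMUSG00000060461) spans chromosome 9 from 78367052 to 78368177 on the minus strand.

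The kept cells other than germ cells had a median of 13320 UMIs at E11.5 and 15528 at E10.5, and the libraries shared 37 barcodes. The cell filter removed 2533 of 12289 barcodes at E11.5 and 2291 of 10996 at E10.5. Cells with a high doublet score were kept, and 11 of the 51 and 1 of the 14 germ cells were among the 8% of cells with the highest score in their library.

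Germ cells made up 0.523% of cells at E11.5 (0.389 to 0.687) and 0.161% at E10.5 (0.0880 to 0.270), a 3.25-fold higher share at E11.5 (1.77 to 6.36). They were split in 2 by their UMIs of the selection genes, a count that also depends on the depth of the cell. In 33 cells at E11.5 and 5 at E10.5 the selection genes gave at least 50 UMIs, and in 18 and 9 they gave 3 to 40. The 33 cells at E11.5 held 69 to 399 UMIs of the selection genes (median 184) and the 5 at E10.5 held 63, 78, 129, 160 and 169. No cell lay between 40 and 63 UMIs, and the split at 50 was chosen after the data had been seen. Counted in this way, the share was 0.338% at E11.5 and 0.0574% at E10.5, a 5.89-fold higher share (2.28 to 19.3).

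**Figure D1:**
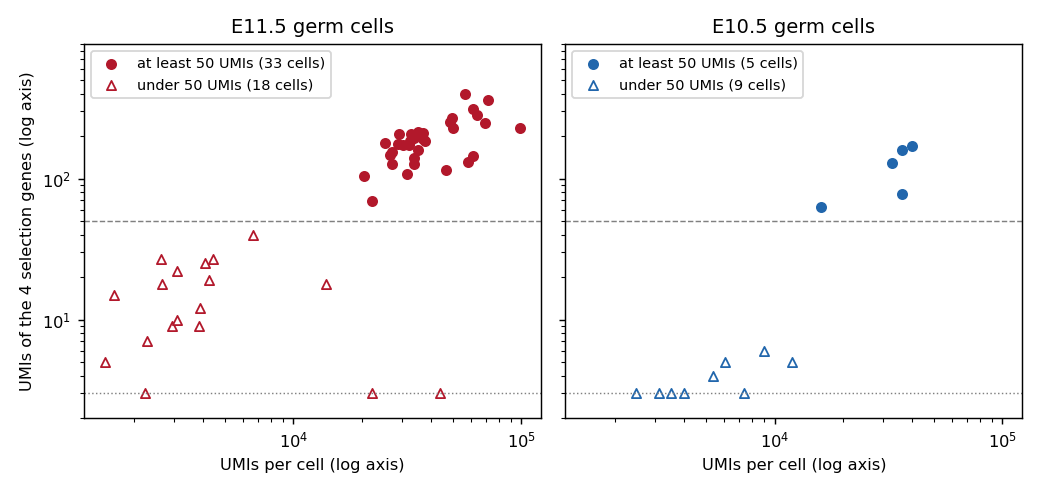
Each symbol is 1 germ cell, with its total UMIs on the horizontal axis and its UMIs of Dppa3, Pou5f1, Dnd1 and Dppa5a on the vertical axis, both logarithmic; the dashed line is at 50 UMIs and the dotted line at the threshold of 3. The filled symbols, 33 cells at E11.5 and 5 at E10.5, hold at least 63 UMIs of the selection genes, and most open symbols have few UMIs in all.

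The cells with at least 50 UMIs were deep, with a median of 35078 UMIs per cell at E11.5 (20443 to 99288) and 36140 at E10.5 (15921 to 40166). Their median number of genes was 5882 at E11.5 and 5683 at E10.5. Of these deep cells, 7 of the 33 and 0 of the 5 were among the 8% of cells with the highest doublet score. The cells below 50 UMIs had a median of 3461.5 UMIs at E11.5 and 5345 at E10.5. Together these lower cells gave 8.39% of the germ cell UMIs at E11.5 and 25.01% at E10.5, leaving out haemoglobin and mitochondrial genes. At the threshold itself, 3 cells at E11.5 and 5 at E10.5 held exactly 3 UMIs, while 33 and 23 cells with 2 UMIs were left out, as were 5 and 1 cells with at least 3 UMIs of a single gene.

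The label was checked with 16 germ cell markers that the rule did not use, among them Prdm1, Tfap2c, Prdm14, Nanos3, Kit and Nanog. The 33 deep cells at E11.5 each held 10 to 16 of these markers (median 14) and the 5 at E10.5 held 8 to 12 (median 12). The lower cells, which have far fewer UMIs, held 0 to 5 at E11.5 (median 3) and 0 to 4 at E10.5 (median 2), while all other cells had a median of 0. Scaled to depth, the 16 markers had a median of 2297 CPM in the 33 cells and 873 CPM in the 18 lower cells at E11.5, and of 1822 CPM in the 5 cells and 502 CPM in the 9 lower cells at E10.5, against 0 in other cells. In the 9 lower cells at E10.5, 8 of the 16 markers were at 0, namely Prdm1, Prdm14, Nanos3, Ddx4, Dazl, Nanog, Mael and Rnf17. The germ cell label thus rests on many genes in the 38 deep cells and on few in the other barcodes. Results are given for all germ cells, and for the 38 cells as well in most of the stage comparisons.

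Markers of other cell types were summed in the same cells, as CPM, UMIs of the gene scaled to a library of 1000000 UMIs, over all genes. Of 8 mesenchyme markers, the 33 cells at E11.5 held 199 CPM, the 18 lower cells 814 CPM and the other cells 1481 CPM, and 7 of the 33 cells held at least 3 of the 8 genes. At E10.5 the 5 cells held 12.4 CPM, the 9 lower cells 740 CPM and the other cells 927 CPM. In those 5 cells Col1a1, Col1a2, Col3a1, Pdgfra, Prrx1 and Lum were at 0. The 8 coelomic and gonadal epithelium markers gave 30.3 CPM in the 33 cells, 163 CPM in the 18 lower cells and 293 CPM in the other cells at E11.5. At E10.5 they were all at 0 in the 5 cells, and gave 37.9 CPM in the 9 lower cells and 208 CPM in the other cells. The 11 erythroid markers gave 1952 CPM in the 33 cells, 28325 CPM in the 18 lower cells and 22389 CPM in the other cells at E11.5. At E10.5 they gave 391 CPM in the 5 cells, 1783 CPM in the 9 lower cells and 23255 CPM in the other cells. At E11.5 a few cells carried these sums, since the highest of the 33 cells stood at 38446 CPM and the highest of the 18 at 77282 CPM. The erythroid medians per cell were 369, 3840 and 894 CPM in the 33, the 18 and the other cells, and 415, 2008 and 637 CPM in the 5, the 9 and the other cells at E10.5. The 7 macrophage markers were at 1.44 CPM in the 33 cells and at 0 in the 5. Gut and endoderm markers gave 338 CPM in the 33 cells at E11.5, against 70.5 CPM in other cells, and 174 CPM in the 5 cells at E10.5, against 141 CPM. Neural and neural crest markers gave 368 CPM in the 33 cells, against 267 CPM in other cells, and 564 CPM in the 5 cells, against 411 CPM. Epcam gave most of the gut sum and Sox2 most of the neural sum. Without haemoglobin and mitochondrial genes, Epcam was at 349 CPM and Sox2 at 306 CPM in the 33 cells, while Foxa2 was at 0 in them and Krt8 at 0.754 CPM. In the 5 cells Epcam was at 149 CPM and Sox2 at 545 CPM, and Foxa2 and Krt8 were at 0. Cdx2, another gut marker, was at 3.02 CPM (4 UMIs) in the 33 cells and 32.5 CPM (5 UMIs) in the 5 cells, against 0.0275 CPM and 0.0360 CPM in other cells. In each library, sums of the nephric, blood progenitor, endothelium, hepatoblast and muscle or somite lists were lower in deep germ cells than in other cells. They were 1.44 to 136 CPM in the 33 cells and 12.4 to 99.2 CPM in the 5. Medians per cell were not all lower. At E11.5 the nephric, blood progenitor and endothelium medians were 33.023, 31.022 and 126.29 CPM, against 0 in other cells. At E10.5 the blood progenitor, endothelium and hepatoblast medians were 24.897, 99.587 and 30.649 CPM, against 0. Hepatoblast at E11.5 (60.512 against 98.743 CPM) and muscle or somite at E10.5 (0 against 56.18) had lower medians. The others were 0 in both. Without haemoglobin and mitochondrial genes, the blood progenitor marker Myb was at 46.776 CPM in the 33 cells, against 24.361 CPM in other cells. In the 5 cells it was at 25.97 CPM, against 5.5406 CPM. The nephric marker Lhx1 was at 29.424 CPM in the 33 cells, against 3.2095 CPM, and at 0 in the 5, against 16.694 CPM. The sums of mesenchyme, epithelium and erythroid markers were thus higher in the lower cells than in the deep ones. Their part in the results was not tested.

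Germ cells were set against all other kept cells to describe the programme that the selection brought out. Since the cells were chosen by their RNA, the ratios describe them and were not tested. Of 7299 genes compared, 595 (8.15%) were at least 2-fold higher in germ cells in both libraries and 605 (8.29%) at least 2-fold lower. From here on CPM leave out haemoglobin and mitochondrial genes, and ratios are log2 of summed CPM.

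Pluripotency genes were part of this difference, with 12 of 13 measured members at least 2-fold higher in germ cells in both libraries and median log2 ratios of 8.10 at E11.5 and 8.002 at E10.5. The member outside that count was Trim28, a corepressor with broad expression, at 0.83 and 0.26. Zfp42, which encodes REX1, was at 101 CPM at E11.5 and 107 CPM at E10.5 in germ cells, against 0.0138 and 0.0288 CPM in other cells. Utf1, a chromatin protein of pluripotent cells, was at 638 and 623 CPM in germ cells, against 2.32 and 0.1799 CPM in other cells. Nanog stood at 69.1 CPM at E11.5 and 73.0 CPM at E10.5 in germ cells, against 0.379 and 0.101 CPM in other cells, with a UMI in 30 of the 33 and 5 of the 5 deep cells. All 5 germ cell specification factors were likewise at least 2-fold higher in both libraries. Prdm14, a regulator of germ cell fate, was not counted in any other cell, and had 26 UMIs in germ cells at E11.5 and 4 at E10.5. Tfap2c, which acts with Prdm1 and Prdm14 in fate specification, had ratios of 9.54 at E11.5 and 8.22 at E10.5.

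**Figure D2:**
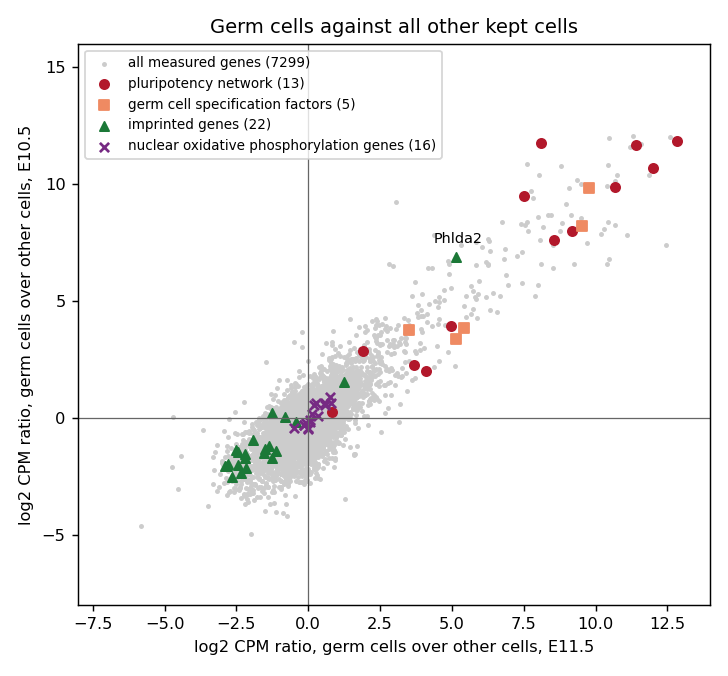
Each grey point is 1 of 7299 genes, with the log2 CPM ratio of germ cells over other cells at E11.5 on the horizontal axis and at E10.5 on the vertical axis; colours mark 4 gene lists. Pluripotency and specification genes lie at the upper right, 16 of 22 imprinted genes lie at least 2-fold below 0 in both libraries, Phlda2 lies far above 0, and oxidative phosphorylation genes lie near 0.

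Apart from the selection genes themselves, the genes that stood highest over other cells by the lower bounds of their intervals included the homeobox genes Rhox6 (log2 12.58 at E11.5 and 12.02 at E10.5) and Rhox9 (11.32 and 12.05), which lie in an X-linked reproductive cluster. Dppa4 (11.41 and 11.66) and Dppa2 (10.69 and 9.86), a pair of chromatin proteins of pluripotent cells, were among them, as were Tcl1 (11.99 and 10.68), an AKT coactivator, and Rbmxl2 (10.68 and 10.13), a germline RNA-binding protein. Also named by this rank were Tdh (9.34 and 10.18), the threonine dehydrogenase used by mouse embryonic stem cells, and Morc1 (8.79 and 10.79), a repressor of transposons in male germ cells. L1td1 (9.19 and 8.002), the ribosomal protein paralog Rpl39l (8.82 and 8.34) and BC048679 (10.39 and 9.92) were named as well. Paralogs within the Rhox, Dppa and ribosomal protein families can share reads, so their single values are uncertain.

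Among the genes named as lowest in germ cells, Afp, the fetal liver plasma protein, had log2 ratios of -5.81 at E11.5 and -4.65 at E10.5. The smooth muscle genes Acta2 (-3.49 and -3.76) and Tagln (-4.53 and -3.03), the collagen gene Col3a1 (-2.73 and -3.13) and the actin-binding Tmsb4x (-2.57 and -2.14) were lower as well. So were Hmga2 (-2.43 and -2.40) and the homeobox gene Meis2 (-2.33 and -2.69). Hmga2 was at -5.89 in the deep cells at E10.5 (-8.94 to -4.04, 2 UMIs). In the 33 deep cells at E11.5, Hmga2 had a median of 0 CPM and a highest value of 1119 CPM, and 15 of the 33 cells held a UMI of it. There were 79 Kit-positive blood progenitors at E11.5 and 22 at E10.5, chosen by UMIs of Kit, Ptprc, Spi1 and Myb. In them Afp was at 31.1 and 3.14 CPM, Col3a1 at 35.9 and 4.19 CPM and Meis2 at 35.9 and 33.5 CPM. In germ cells these were at 40.1 and 14.6, 61.5 and 29.2, and 63.6 and 58.4 CPM. Acta2, Tagln, Tmsb4x and Hmga2 were higher in blood progenitors than in germ cells. Low Afp, Col3a1 and Meis2 were thus not limited to germ cells.

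Imprinted genes, which are expressed from 1 parental allele under methylation marks that germ cells erase, were mostly low. Of 22 measured members, 16 were at least 2-fold lower in germ cells in both libraries and 2 at least 2-fold higher, beside 8.29% and 8.15% of all genes. The median ratios were -2.05 at E11.5 and -1.49 at E10.5. The growth-linked RNA H19 (-2.66 and -2.53), Dlk1 (-2.36 and -2.36), the cell cycle inhibitor Cdkn1c (-2.52 and -1.38) and Mest (-2.17 and -2.15) were on the low side. Deep cells at E10.5 had ratios of -4.58 for H19, -4.27 for Dlk1, -4.57 for Cdkn1c and -4.26 for Mest. In the blood progenitors Dlk1 was at 75.4 and 26.2 CPM, Mest at 106 and 104 CPM and H19 at 328 and 469 CPM. All germ cells held 151 and 146, 144 and 394, and 142 and 107 CPM of these. Dlk1 and Mest were thus lower still in blood progenitors, while H19 was higher there. Phlda2, a growth-restraining gene of the placenta, was on the high side, at 199 CPM at E11.5 and 550 CPM at E10.5 in germ cells, against 5.68 and 4.71 CPM in other cells. Snrpn, a splicing protein gene, was the other, at 1.23 and 1.54. Among DNA methylation genes, the de novo enzyme Dnmt3a was at 34.6 and 24.3 CPM in germ cells, against 113 and 93.9 CPM in other cells. Uhrf1, which brings the maintenance enzyme Dnmt1 to replicated DNA, was at 26.3 and 43.8 CPM, against 80.9 and 97.0 CPM. Dnmt1 itself was at 184 and 185 CPM in germ cells, against 140 and 113 CPM in other cells.

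The stage comparison asked how germ cells at E11.5 differed from those at E10.5. Of 7351 genes with at least 20 germ cell UMIs in the libraries together, 937 (12.7%) were at least 2-fold higher at E11.5 and 272 (3.7%) at least 2-fold lower, with a median log2 ratio of 0.15. Setting that median to 0 gave 769 and 411 genes. In the 38 deep cells, 1112 of 6828 genes (16.3%) were at least 2-fold higher and 232 (3.4%) at least 2-fold lower, with a median of 0.17. The E10.5 germ cells held 205391 UMIs against 1446771 at E11.5, so a gene could pass the count minimum on E11.5 alone. For this reason lists are given by the sum over all their members beside the counts of measured genes.

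Germline genes known to be silenced by promoter methylation before this age were higher at E11.5 as a group. The 18 genes of this list summed to 776 CPM at E11.5 and 117 CPM at E10.5, a log2 ratio of 2.73 (2.15 to 3.38), and to 14.7 and 6.404 CPM in other cells. In the 38 deep cells the ratio was 2.61 (1.99 to 3.31). Of 9 measured members, 7 were at least 2-fold higher at E11.5 and 0 at least 2-fold lower, and the median was 1.83, beside the 12.7%, 3.7% and 0.15 of all genes. These 7 passed the count minimum on their E11.5 UMIs alone, so the count and the median are only a description. The other 9 members had 0 to 18 UMIs at E11.5 and 0 or 1 at E10.5.

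Promoters of this list are shown because the letters CACGTG, an E-box that reads the same on both strands, recur in them close to the start of the gene. In RefSeq promoters of build GRCm38.p6, from 250 bases before to 50 bases after the start, 11 of 17 matched list members held CACGTG (64.7%), against 2187 of 27025 genes in all (8.09%). None of the 13 matched pluripotency genes held it. The median number of CpG pairs was 22 in the list, 8 over all genes and 14 in the pluripotency genes. Such a match is a description of the letters and not a binding site. The 120 bases that end at the base before the start are given 5′ to 3′ on the gene's own strand, with CACGTG in capitals. Sycp3, a protein of the meiotic chromosome axis, has CACGTG at first bases 64 and 43 before its start, Stk31, a germline kinase-like protein, at 55, and Hormad1, another axis protein, at 57 and 20. In Slc25a31, a germline ADP/ATP carrier of mitochondria, the first base lies 93 before the start. Dazl, an RNA-binding protein that licenses germ cells for sexual development, is shown as a list member with no match.
Sycp3, chr10:88459467-88459586, plus strand: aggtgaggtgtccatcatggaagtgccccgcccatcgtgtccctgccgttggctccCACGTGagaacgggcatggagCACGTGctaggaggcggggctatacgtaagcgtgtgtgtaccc
Stk31, chr6:49395419-49395538, plus strand: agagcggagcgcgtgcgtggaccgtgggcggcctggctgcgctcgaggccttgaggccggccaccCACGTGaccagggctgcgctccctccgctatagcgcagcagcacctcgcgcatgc
Hormad1, chr3:95559557-95559676, plus strand: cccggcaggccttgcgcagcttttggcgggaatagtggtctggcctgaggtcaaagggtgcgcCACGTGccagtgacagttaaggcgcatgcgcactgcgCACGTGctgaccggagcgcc
Slc25a31, chr3:40708751-40708870, plus strand: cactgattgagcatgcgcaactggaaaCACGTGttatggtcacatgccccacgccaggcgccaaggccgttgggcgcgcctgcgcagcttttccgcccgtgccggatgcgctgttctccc
Dazl, chr17:50293621-50293740, minus strand: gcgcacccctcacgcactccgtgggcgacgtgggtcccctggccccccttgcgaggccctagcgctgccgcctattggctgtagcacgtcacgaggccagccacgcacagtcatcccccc

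Dazl had the highest rank of the genes that were higher at E11.5. It had 208 UMIs in the 51 germ cells at E11.5 and 2 in the 14 at E10.5, or 144 and 9.74 CPM, a log2 ratio of 3.88 (2.01 to 6.94), and 3.58 in the deep cells. Among the 33 deep cells at E11.5, Dazl ranged from 0 to 861 CPM with a median of 64.0, and 8 of the 33 held no UMI of it. In the 5 cells at E10.5, Dazl stood at 0, 0, 0, 25.7 and 67.0 CPM, which is 1 UMI in each of 2 cells. The stages thus overlapped at the low end, while 25 of the 33 E11.5 cells held Dazl. Of the 25 E11.5 cells with at least 30000 UMIs, 7 had none. With every cell thinned to 5000 UMIs, Dazl was found in 12 of 37 germ cells at E11.5 (32.4%, 18.01 to 49.8). At E10.5 it was found in 0 of 10, with an interval up to 30.85% that holds for this depth only. Thinning left out 14 and 4 germ cells with fewer UMIs. Of the 37 cells at E11.5, 33 were deep, and 12 of these 33 held Dazl after thinning (36.4%, 20.4 to 54.9). The 10 cells at E10.5 were the 5 deep ones and lower cells, whose germ cell label rests on few genes. The stages were thus not matched in kind of cell. Without thinning the shares were 52.9% of 51 germ cells at a median of 30282 UMIs and 14.3% of 14 at 8148 UMIs. Other cells, which are not known to express Dazl, held a UMI of it in 0.350% at E11.5 and 0.161% at E10.5.

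Rnf17, a Tudor protein of germ granules, had 195 UMIs at E11.5 and 3 at E10.5, a ratio of 3.21 (1.64 to 5.50). Ddx4, the vasa RNA helicase that marks later germ cells, had 131 and 3 UMIs, a ratio of 2.63 (1.05 to 4.93). The 33 deep cells at E11.5 held a median of 142 CPM of Rnf17 (0 to 311) and 71.3 CPM of Ddx4 (0 to 280), against 25.7 CPM (0 to 29.1) and 28.6 CPM (0 to 32.4) in the 5 cells at E10.5. A UMI of Rnf17 was missing from 1 of the 33 E11.5 cells and a UMI of Ddx4 from 4, so these were more widely detected than Dazl. Rnf17 was not limited to germ cells, as 6.399% of other cells at E11.5 and 2.35% at E10.5 held a UMI.

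Stk31 had 140 UMIs at E11.5 and 4 at E10.5 (log2 2.31, 0.92 to 4.21) and Fkbp6, a co-chaperone of the piRNA pathway, had 189 and 9 (1.58, 0.62 to 2.73). Hormad1 had 50 and 2 UMIs (1.83, -0.10 to 4.91), an interval that holds 0. Asz1, which anchors piRNA factors at mitochondria, had 74 UMIs at E11.5 and 0 at E10.5. Read against 3 UMIs, its level was higher at E11.5 by at least 1.81 on the log2 scale, and by at least 1.48 in the deep cells. The coordinates of Dazl (ENSMUSG00000010592) in GRCm38 are chromosome 17 from 50279395 to 50293636, those of Ddx4 (ENSMUSG00000021758) chromosome 13 from 112598333 to 112652475 and those of Rnf17 (ENSMUSG00000000365) chromosome 14 from 56402581 to 56525032.

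**Figure D3:**
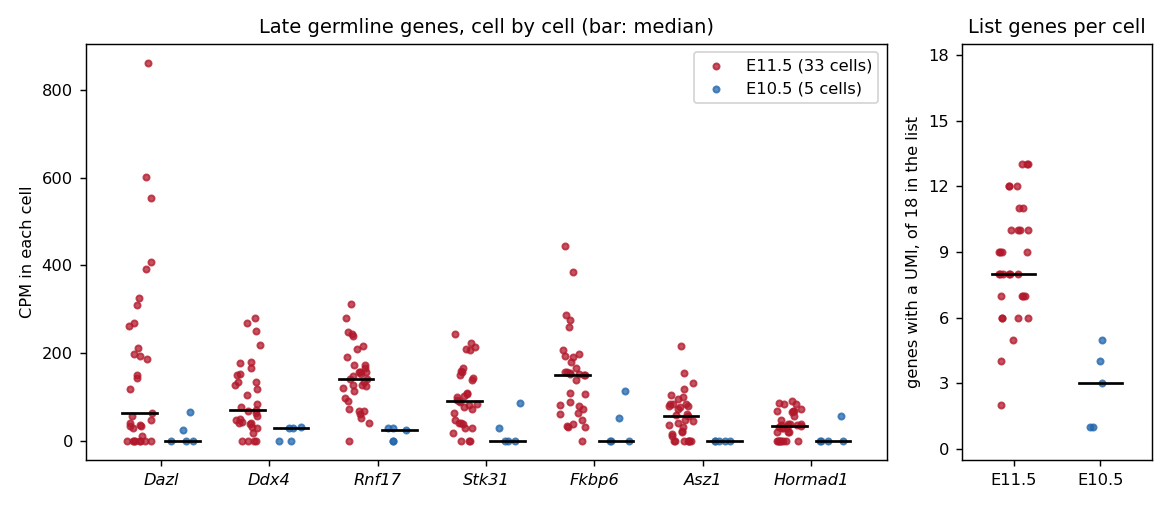
In the left panel each point is the CPM of 1 gene in 1 of the 33 E11.5 or 5 E10.5 germ cells with at least 50 UMIs of the selection genes, and bars are medians; in the right panel each point is the number of the 18 germline genes with a UMI in a cell. Dazl spreads from 0 to 861 CPM at E11.5, and the number of genes runs from 2 to 13 at E11.5 and from 1 to 5 at E10.5.

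Within single cells, 2 to 13 of the 18 genes had a UMI at E11.5 (median 8) and 1, 1, 3, 4 and 5 did at E10.5. Other cells with at least 15000 UMIs had a median of 0 and at most 3 at E11.5 or 2 at E10.5. The summed level of the list ran from 131 to 2117 CPM in the E11.5 cells (median 776) and from 32.4 to 314 CPM in the E10.5 cells (median 87.3). The pluripotency list in the same cells ran from 1604 to 3708 CPM at E11.5 (median 2741) and 2479 to 3650 CPM at E10.5 (median 3087). Over the 33 cells at E11.5, which share a library, Dazl and the rest of the list had a Spearman correlation of 0.61, Dazl and the pluripotency list 0.11, and Dazl and the total UMIs of the cell -0.07. These are descriptions of a single library in sparse counts.

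The piRNA pathway, which silences transposons in the germline, summed to 404 CPM at E11.5 and 112 CPM at E10.5 over 16 genes (log2 1.85, 1.25 to 2.52). It shares Rnf17, Asz1, Mael and Tdrd1 with the list above. Of 7 measured members, 4 were at least 2-fold higher at E11.5 and 0 at least 2-fold lower, with a median of 1.81, beside 12.7%, 3.7% and 0.15 of all genes. Members could pass the count minimum on E11.5 UMIs alone, so this count is only a description. Mov10l1, the helicase that starts piRNA making, had 56 UMIs at E11.5 and 1 at E10.5 (2.99, 0.45 to 8.32), and Piwil2, a PIWI protein, had 48 and 1 (2.77, 0.22 to 8.10). Piwil4 and the methyltransferase Henmt1 had no UMI at either stage.

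Meiosis genes summed to 200 CPM at E11.5 and 73.0 CPM at E10.5 over 14 genes (log2 1.45, 0.71 to 2.31), and 3 of 4 measured members were at least 2-fold higher, beside 12.7% of all genes. These 3 passed the count minimum on their E11.5 UMIs alone, so the count is only a description. The list shares Hormad1, which is 1 of the 3, Sycp1 and Sycp3 with the germline list above. The meiotic cohesin subunit Smc1b had 79 and 2 UMIs (2.49, 0.59 to 5.56) and Stag3, another of its subunits, had 53 and 3 (1.33, -0.30 to 3.65). Stra8, the retinoic acid target that opens meiosis, had no UMI in the 51 germ cells at E11.5 or the 14 at E10.5, and neither did Prdm9. A count of 0 allows up to 3 UMIs in each. Nanos2, a marker of male germ cells later in fetal life, was at 0 UMIs as well. A list of 9 germ cell survival genes held Dazl, Ddx4 and other RNA-binding proteins together with the receptor Kit. In it the RNA-binding protein gene Nanos3 had 44 and 3 UMIs (1.06, -0.58 to 3.39), Kit, the receptor that keeps germ cells alive, had 133 and 13 (0.54, -0.28 to 1.49), and the RNA-binding Elavl2 had 168 and 13 (0.88, 0.06 to 1.81). The list, with Kit, summed to 715 and 404 CPM (0.82, 0.50 to 1.16).

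The pluripotency list was at nearly the same level at both stages over all germ cells, and was lower at E11.5 in the deep cells. Its 15 genes summed to 2513 CPM at E11.5 and 2576 CPM at E10.5, a ratio of -0.04 (-0.17 to 0.10), and to 2652 and 3123 CPM in the deep cells (-0.24, -0.37 to -0.10). Of 13 measured members, 2 were at least 2-fold higher at E11.5 and 0 at least 2-fold lower, beside 12.7% and 3.7% of all genes. Utf1 had a ratio of 0.03 (-0.23 to 0.31), Zfp42 of -0.09 (-0.74 to 0.63) and Nanog of -0.08 (-0.87 to 0.81). Sox2 was lower at E11.5, at 287 and 414 CPM (-0.53, -0.87 to -0.17), and Klf2 was lower at 244 and 477 CPM (-0.97, -1.29 to -0.63). In the deep cells Klf2 had a median of 237 CPM at E11.5 (65.5 to 680) and stood at 379, 486, 536, 616 and 823 CPM at E10.5. Dppa4 was higher, at 206 and 117 CPM (0.82, 0.22 to 1.48), while its interval in the deep cells held 0 (0.55, -0.06 to 1.23). The 5 specification factors summed to 428 and 419 CPM (0.03, -0.30 to 0.37), with Klf5 at 1.48 (0.32 to 2.96) and Tfap2c at -0.51 (-1.09 to 0.10). The interval of Klf5 in the deep cells held 0 (1.16, -0.01 to 2.63) and that of Tfap2c did not (-0.77, -1.36 to -0.15). The selection genes chose the cells, so their ratios are only a description: 0.15 for Dppa3, -0.21 for Pou5f1, -0.20 for Dnd1 and 1.13 for Dppa5a in all germ cells, and -0.13, -0.51, -0.38 and 0.88 in the deep cells.

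Among surface and migration genes, Ifitm3 and Ifitm1, interferon-induced membrane proteins used as early germ cell markers, were lower at E11.5. Ifitm3 was at 632 CPM at E11.5 and 1466 CPM at E10.5 (-1.21, -1.40 to -1.02). In the deep cells it had a median of 619 CPM at E11.5 (179 to 1709), against 1048, 1172, 1809, 2313 and 2658 CPM at E10.5. The highest E11.5 cells overlapped the lowest E10.5 cells. Ifitm1 was at 989 and 1500 CPM (-0.60, -0.78 to -0.42) in germ cells, while in other cells it was at 128 and 16.5 CPM, in the opposite direction (2.95). Alpl, the alkaline phosphatase by which germ cells have long been stained, was at 143 and 263 CPM (-0.88, -1.32 to -0.42), with a median of 153 CPM at E11.5 (22.4 to 325) and 233, 259, 372, 412 and 536 CPM at E10.5 in the deep cells. Epcam, an epithelial adhesion protein, was higher at E11.5, at 326 and 141 CPM (1.21, 0.66 to 1.80), and Pecam1, an adhesion protein shared with endothelium, was higher at 93.3 and 39.0 CPM (1.26, 0.24 to 2.50). Of 13 measured members of the list of 18, 2 were at least 2-fold higher, near the 12.7% of all genes, and 2 at least 2-fold lower, beside 3.7%. The list summed to 2641 and 3793 CPM (-0.52, -0.63 to -0.41), a sum to which Ifitm1 and Ifitm3 gave the most, while the median of its members was 0.25. The chemokine receptor Cxcr4 had 10 and 1 UMIs, too few for a direction.

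Among chromatin genes, Tet1, which oxidises methylated cytosine, was at 200 CPM at E11.5 and 63.3 CPM at E10.5 (1.66, 0.86 to 2.58). In the deep cells Tet1 had a median of 201 CPM at E11.5 (39.4 to 553) and stood at 0, 51.4, 87.3, 97.2 and 143 CPM at E10.5. Parp1, a DNA repair enzyme, was at 617 and 404 CPM (0.61, 0.29 to 0.95), and Dnmt1 at -0.01 (-0.50 to 0.52). The deaminase gene Apobec1 and the methylation cofactor Dnmt3l had no UMI in germ cells of either library. The list of DNA methylation and demethylation genes summed to a ratio of 0.28 (0.11 to 0.46). Of its 11 measured members, 2 were at least 2-fold higher and 1 lower, beside 12.7% and 3.7% of all genes. Of 18 measured genes of histone methylation and repression, 2 were at least 2-fold higher, a share near the 12.7% of all genes. They were the methyltransferase gene Setdb1 (1.04, 0.07 to 2.20) and L3mbtl2 (1.81, 0.20 to 4.12). L3mbtl2, Mga, E2f6 and Pcgf6 encode subunits of a variant Polycomb complex known to hold germline genes silent. Mga was at 0.08 (-0.65 to 0.91), E2f6 at 0.12 (-1.60 to 2.50) and Pcgf6 lower at -0.91 (-1.57 to -0.19).

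**Figure D4:**
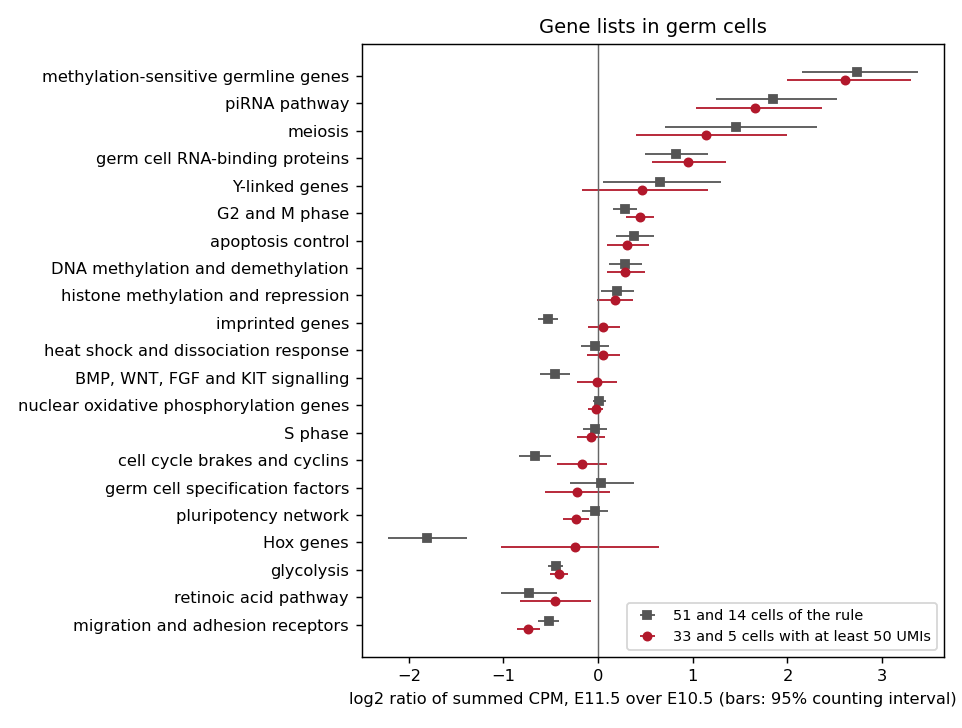
Symbols are log2 ratios of the summed CPM of each gene list, E11.5 over E10.5, with 95% counting intervals; grey squares are all 51 and 14 germ cells and red circles the 33 and 5 cells with at least 50 UMIs of the selection genes. The germline, piRNA and meiosis lists lie highest in both selections, while imprinted genes are at -0.53 in all germ cells and 0.06 in the deep cells, a value that rests on 6 of them.

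Glycolysis genes summed to 5645 CPM at E11.5 and 7707 CPM at E10.5 (-0.45, -0.53 to -0.37), and to -0.41 in the deep cells. Over all germ cells 5 of 16 members were above 0, beside 4394 of 7351 genes in all. In other cells the list summed to 7666 and 9771 CPM, so it was lower at E11.5 there too. The glucose transporter Slc2a1 was at 31.8 and 97.4 CPM (-1.61, -2.40 to -0.78) and Ldha at 265 and 472 CPM (-0.84, -1.16 to -0.50). Nuclear genes of oxidative phosphorylation were level (0.01, -0.06 to 0.09), and 0 of 16 differed 2-fold. Genes of G2 and M phase summed to 0.28 (0.16 to 0.41) in all germ cells, with 0 of 15 at least 2-fold higher. The same genes summed to 0.44 (0.29 to 0.59) in the deep cells, with 6 of 15 at least 2-fold higher, beside 16.3% of all genes. S phase genes summed to -0.03 (-0.16 to 0.10), and to -0.08 (-0.22 to 0.07) in the deep cells. Ung, a uracil glycosylase counted in the S phase list, was at 254 and 399 CPM in germ cells, against 35.3 and 45.7 CPM in other cells. Apoptosis genes summed to 0.38 (0.18 to 0.59), with Trp53 at 0.53 (0.13 to 0.97) and Bax at 0.36 (0.00 to 0.74).

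Imprinted genes, signalling targets and Hox genes gave different answers in the 2 selections. Over all germ cells the imprinted list summed to 2721 CPM at E11.5 and 3929 CPM at E10.5 (-0.53, -0.64 to -0.42), against 2134 and 2052 CPM in the deep cells (0.06, -0.11 to 0.23). Cdkn1c was at -1.14 in all germ cells and 0.96 in the deep cells, Meg3 at -0.61 and 1.80, and Mest at -1.45 and 0.26. Phlda2 kept its direction, at -1.47 and -1.76, and in the deep cells it had a median of 158 CPM at E11.5 (0 to 775) and stood at 134, 175, 229, 1005 and 1619 CPM at E10.5. Signalling genes of the BMP, WNT, FGF and KIT pathways summed to -0.46 in all germ cells and -0.02 in the deep cells, and the BMP target Id1 was at -1.46 and 0.66. Hox genes summed to 103 and 360 CPM in all germ cells (-1.81) and to 82.2 and 97.4 CPM in the deep cells (-0.24). The list of cell cycle brakes and cyclins was at -0.67 and -0.17. Without the 6 deep E11.5 cells that held at least 5 UMIs of Col1a2 or over 1% haemoglobin, the deep cells gave -0.60 (-0.78 to -0.42) for the imprinted sum, -2.11 (-3.13 to -1.06) for the Hox sum and -0.53 for the brakes. Cdkn1c was then at -1.28 and Mest at -1.39, while Meg3 was at 0.53 (-0.79 to 2.22) and the signalling sum at -0.11 (-0.32 to 0.11). All 5 deep E10.5 cells were kept in these values. Of them, 1 cell held 12 of the 14 Mest UMIs, 6 UMIs of Cdkn1c (at most 3 in any other) and all 5 UMIs of Hoxc8. Values without that cell were not computed. The mesenchyme markers given above, which were at 740 CPM in the 9 lower E10.5 cells and at 12.4 CPM in the 5 deep ones, differed between the selections too, and their part in these values was not tested.

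Of 6 measured retinoic acid genes, 3 were at least 2-fold lower in germ cells than in other cells in both libraries, beside 8.29% of all genes. Between stages the list summed to 351 CPM at E11.5 and 584 CPM at E10.5 (-0.73, -1.02 to -0.44), and to -0.46 (-0.82 to -0.07) in the deep cells. Crabp2, a retinoic acid carrier, had 13 and 14 UMIs (-2.92, -4.13 to -1.73). The degrading enzymes Cyp26a1, Cyp26b1 and Cyp26c1 had no UMI in germ cells at either stage. Heat shock and immediate early genes, a sign of stress in dissociation, were level between stages (-0.03, -0.18 to 0.12). Of 9 measured, 4 were at least 2-fold lower in germ cells than in other cells in both libraries, beside 8.29% of all genes, with Fos at -3.18 and -3.14.

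Genes were also named by rank alone, as the 10 in each direction whose interval lay farthest from 0. Besides Dazl, Rnf17 and Asz1, the higher ones included Lefty2, Trap1a, Ufd1, Rpl39l, Ash1l and Cyct. Lefty2, a secreted inhibitor of NODAL signalling, had 100 UMIs at E11.5 and 0 at E10.5, a level higher by at least 2.24 on the log2 scale, and by at least 1.88 in the deep cells. It had a UMI in 24 of the 33 deep cells. Rpl39l, the germline paralog of a ribosomal protein, was at 265 and 53.6 CPM (2.31, 1.45 to 3.32). In the deep cells Rpl39l had a median of 289 CPM at E11.5 (30.5 to 849) and 28.6 CPM at E10.5 (0 to 201). Cyct, the testis form of cytochrome c, had 147 and 3 UMIs (2.80, 1.22 to 5.09), and Trap1a, an X-linked gene, 190 and 3 (3.17, 1.5995 to 5.46). Ufd1 and Ash1l are broadly expressed, at 44.7 and 114 CPM in other cells at E11.5 and 52.1 and 89.4 CPM at E10.5. Ufd1 had 74 UMIs at E11.5 and 0 at E10.5 in germ cells, and Ash1l had 98 and 1.

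Of the 10 genes named as lower at E11.5, the interval stayed below 0 in the deep cells for Slc2a1 (-1.69, -2.58 to -0.73) and the actin-bundling gene Fscn1 (-0.83, -1.42 to -0.20). The nuclear RNA Malat1 was at -0.89 in all germ cells and at -0.09 (-0.27 to 0.09) in the deep cells. The other 7 had ratios above 0 in the deep cells, with intervals that all hold 0. Notch2 was at -1.93 in all germ cells and 1.29 (-1.35 to 6.66) in the deep cells, Id2 at -1.61 and 0.39 (-0.65 to 1.64), and the linker histone gene H1f0 at -1.72 and 0.17 (-0.95 to 1.54). The rest were Pclaf, H2afy2, Mest and Pimreg. In other cells all 10 genes but Malat1 (0.52) were lower at E11.5 as well, with Fscn1 at -1.49, Mest at -1.43 and Slc2a1 at -0.32. A lower level at E11.5 was thus not limited to germ cells. Without the 6 deep cells that held Col1a2 or haemoglobin, 5 of the 7 were below 0 again, with an interval that excluded 0 for Mest alone. Of the 14 Mest UMIs in the 5 deep cells at E10.5, 12 came from 1 cell, which was kept. The genes named as higher were above 0 in the deep cells too, but those cells gave most of the UMIs on which they were ranked, so this is no separate observation.

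**Figure D5:**
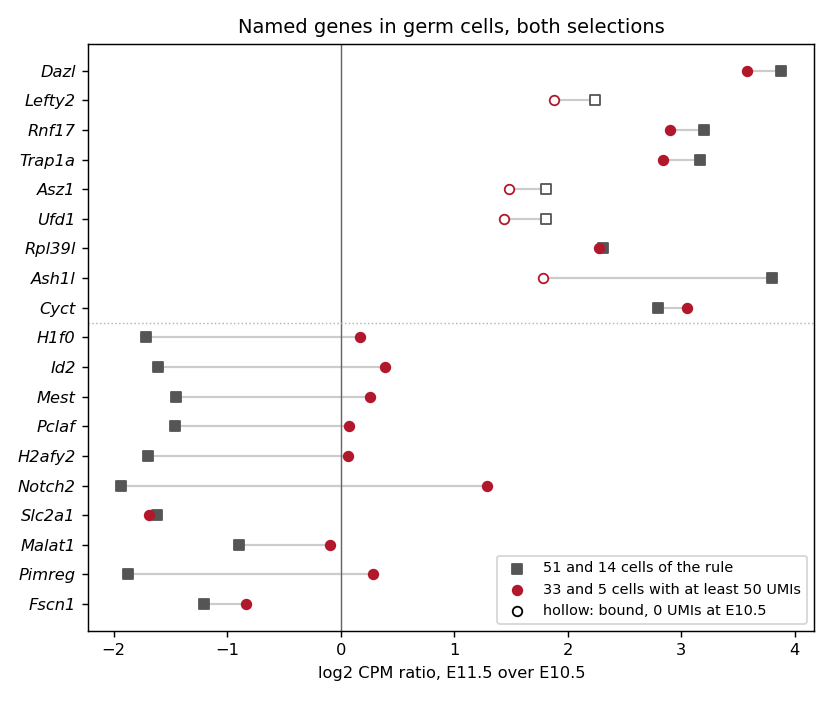
Log2 CPM ratios, E11.5 over E10.5, of 9 of the 10 genes named as higher and the 10 named as lower, in all 51 and 14 germ cells (grey squares) and in the 33 and 5 cells with at least 50 UMIs of the selection genes (red circles); hollow symbols are bounds against 3 UMIs. The 9 higher genes shown lie right of 0 in both selections, while 7 of the 10 lower genes cross 0.

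Sex-linked genes were read in the same cells. All 33 deep cells at E11.5 and all 5 at E10.5 held UMIs of Ddx3y, Eif2s3y, Kdm5d or Uty, which lie on the Y chromosome. Xist, the RNA that coats an inactive X chromosome, was counted in 2 of the 33 cells and in 0 of the 5. Over all germ cells, a Y-linked UMI was present in 41 of 51 cells at E11.5 (80.4%) and 8 of 14 at E10.5. Other cells with at least 15000 UMIs held a Y-linked UMI in 94.5% at E11.5 and 87.9% at E10.5, and Xist was counted in 11 of 9705 and 9 of 8691 other cells, so cells with Xist were rare in both libraries. The 4 Y-linked genes summed to a stage ratio of 0.65 (0.06 to 1.30) in all germ cells and 0.46 (-0.17 to 1.16) in the deep cells. Genes of the X chromosome gave a median of 2.64% of UMIs in the deep cells at E11.5 and 2.65% at E10.5, against 3.27% and 3.21% in other cells.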

How the data were processed

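The deposited files held raw UMI counts per gene and barcode for 1 library per stage, whole numbers made by the authors with Cell Ranger 5.0.0 on mm10 (GRCm38), per the submitters' processing notes. Libraries were 10x 3' (v3.1 chemistry), per the labels' protocols. The cell filter asked for 1000 UMIs and 500 genes or more, with mitochondrial genes giving no more than 10% of UMIs. Doublets were scored with Scrublet through scanpy 1.11.5 and kept in the main results. UMIs were summed over cells, and CPM were computed here per 1000000 UMIs without haemoglobin and mitochondrial genes, other than in the marker sums, which use all genes. A gene was measured with at least 20 germ cell UMIs in both libraries together. Levels were not compared between genes, since 3' counts depend on each gene's end. Shares have exact Clopper-Pearson intervals and ratios exact conditional intervals, and where a class had no UMI in a library, 3 UMIs stood in as its limit. The ratio intervals were run on simulated counts with counting error only. That run holds no variation between cells, so it cannot show how the intervals perform on these cells. Between stages, genes named by rank reached 50 CPM in either library and 30 UMIs in all, had at most 25% of the UMIs from a single cell and an interval that excluded 0, and the 10 with bounds farthest from 0 were taken each way, leaving out haemoglobin, mitochondrial, Xist and Y-linked genes. Against other cells, the 20 highest with at least 50 CPM in germ cells and the 10 lowest with at least 200 CPM in other cells were taken. Some genes that these rules name are not reported here. Members of 21 gene lists and 13 marker lists were named as examples. The cell rule, the members and the lists were chosen with earlier results of these data known. Promoter sequences came from RefSeq and gene positions from the GENCODE annotation of GRCm38. Alternatives were a stricter rule (10 UMIs and 3 genes), 2000 UMIs per cell, 5% mitochondrial UMIs, the 8% highest Scrublet scores removed, CPM over all genes, the mean over cells, centring on the median, 50 or 1 UMIs per gene and no thinning. The selections at 50 UMIs were added after the data had been seen. Python 3.11.15, numpy 2.4.6, scipy 1.17.1, pandas 2.3.3 and matplotlib 3.10.9 were used.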

Additional observations from a re-analysis of the deposited data

Results flagged for a closer look

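Outside the cell filter, 6 of 2533 barcodes at E11.5 also met the germ cell rule, as did 1 of 2291 at E10.5, and 0 of them held 50 UMIs of the selection genes. They stand out because these barcodes were left out of every comparison.

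Asz1 and Mov10l1 had opposite directions in germ cells and in other cells, and the difference between the directions was not tested. The log2 ratio of Asz1 between stages was 1.81 as a lower bound in germ cells and -1.06 (-2.40 to 0.17) in other cells, where its level was 0.0620 CPM at E11.5 and 0.130 CPM at E10.5. For Mov10l1 the ratio was 2.99 in germ cells and -2.06 (-7.69 to 1.27) in other cells, where its level was 0.00689 CPM at E11.5 and 0.0288 CPM at E10.5. Both intervals in other cells hold 0.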

How the results depend on the processing

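No paired analysis was possible because each stage has 1 library and the result comes from no test. With 5 deep germ cells at E10.5, genes with few UMIs there have wide intervals, for Dazl 2.01 to 6.94, and stage and library cannot be told apart. The E11.5 over E10.5 share of germ cells among cells, 3.25-fold, was 7.85-fold under the stricter rule, which kept 44 and 5 cells. The 937 higher and 272 lower genes numbered 1538 and 800 as a mean over cells, 439 and 61 with at least 50 UMIs per gene, and the lower genes 411 after centring and 833 with at least 1 UMI. The 605 genes lower than in other cells numbered 391 with the highest Scrublet scores removed and 391 as a mean over cells. The thinned share of E11.5 germ cells with Dazl, 32.4%, was 52.9% without thinning, and the Y-linked share, 80.4%, was 100% in cells with at least 50 UMIs.

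Besides Meg3 and the imprinted sum, described above, the ratios given next changed sign. Only ratios of at least 2-fold in the main results were read for this. Ratios nearer 0 crossed it as well, such as the specification sum, at 0.03 in all germ cells and -0.23 in the deep cells. Under the stricter rule the stage ratios became 0.84 for Id1, 1.30 for Notch2, 0.41 for Mest, 1.18 for Cdkn1c, 0.27 for H2afy2, 0.10 for Pclaf, 0.37 for Pimreg, 0.41 for Id2, 0.30 for H1f0 and 0.10 for the Hox sum. In cells with at least 50 UMIs they were 0.66 for Id1, 1.29 for Notch2, 0.26 for Mest, 0.96 for Cdkn1c, 0.0647 for H2afy2, 0.0769 for Pclaf, 0.29 for Pimreg, 0.39 for Id2 and 0.17 for H1f0. Leaving out also the 6 cells with Col1a2 or globin gave 0.26 for Id1, 1.03 for Notch2, -0.21 for Aldh1a2 and 0.24 for Pimreg. Aldh1a2, at 1.27, was at -1.94 with high Scrublet scores removed. As a mean over cells, stage log2 Fgfr2 was 0.23 and stage log2 Cdc6 was -0.0924, against -1.10 and 1.07. The imprinted sum was 0.06 with at least 50 UMIs and -0.60 with the mixed cells left out. The cause was not tested. A limit of 5% mitochondrial UMIs, a minimum of 2000 UMIs per cell and CPM over all genes turned no sign among ratios of at least 2-fold.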
